A study of Mus musculus with 4 samples.

Results

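The 10 genes described here encode neurofilament subunits and other proteins of the neuronal cytoskeleton, namely Nefl, Nefm, Nefh, Ina, Tubb3, Mapt, Map2, Map1b, Stmn2 and Gap43. They were chosen by name, and each was found on the arrays through the RefSeq accession of its probes. They are 10 of the 32585 genes or unnamed transcripts on the array, of which 20144 carry a RefSeq symbol, and 15 probes measured them. The study asked what the loss of IP6K2, a kinase that makes inositol pyrophosphates, does in mouse tissues, and RNA of whole spinal cord and whole duodenum was hybridized to 1-colour mouse arrays. Each genotype was represented by 1 array in each tissue, so that the data are 4 arrays, on 1 slide. The WT array and the IP6K2-/- array of each tissue came from male mice of 20 weeks, and the IP6K2-/- mice lack the exon that encodes the kinase domain while the WT mice were littermates. All these mice, WT included, had been moved from a standard diet to a purified diet, kept on it for 1 week, and denied food for the last 48 h. The labels do not say whether both tissues of a genotype came from the same mouse.

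Neurofilaments are the intermediate filaments of neurons. They are assembled from light, medium and heavy subunits (Nefl, Nefm and Nefh) together with alpha-internexin (Ina), fill large myelinated axons such as those of spinal motor neurons, and set axon calibre. Axons and dendrites also hold microtubules, which contain the neuronal beta-tubulin Tubb3 and are bound by tau (Mapt, mainly axonal), MAP2 (mainly dendritic) and MAP1B (growing axons). Stathmin-2 (Stmn2) regulates microtubule dynamics in axons, and GAP-43 (Gap43) is a membrane protein of growth cones and presynaptic endings. In the gut these proteins are known from the neurons of the enteric plexuses, and some are also made by endocrine cells.

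RefSeq promoter sequences (GRCm38.p6) were matched for 4 of the 10 genes, Ina, Tubb3, Map2 and Map1b. The 250 bases before the annotated start had a GC content of 70.8% in Ina, 68% in Tubb3, 81.2% in Map2 and 66.4% in Map1b, against a median of 52.4% over 32851 promoters of the same length. They held 25, 21, 34 and 19 CpG dinucleotides in that order, against a median of 6. A GC box (GGGCGG on either strand), the core of Sp1-type sites, occurred 2 times in Ina, 2 times in Tubb3, 5 times in Map2 and 1 time in Map1b, and 32.7% of all promoters held at least 1. The letters TATAAA on either strand occurred only in Map1b, and 12.4% of all promoters held them. The 3 sequences printed are the one with most GC boxes (Map2, chr1:66175079-66175328, plus strand), the one with TATAAA (Map1b, chr13:99516603-99516852, minus strand) and that of the beta-tubulin gene widely used as a neuronal marker (Tubb3, chr8:123411303-123411552, plus strand). Capitals mark GC boxes and TATAAA, and each runs 5′ to 3′ in the direction of the gene.
Map2: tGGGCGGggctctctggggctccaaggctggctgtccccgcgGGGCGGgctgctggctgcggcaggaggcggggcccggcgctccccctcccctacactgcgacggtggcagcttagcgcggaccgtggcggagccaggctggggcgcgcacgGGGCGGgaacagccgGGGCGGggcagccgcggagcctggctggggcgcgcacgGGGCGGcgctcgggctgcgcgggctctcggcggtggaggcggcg
Map1b: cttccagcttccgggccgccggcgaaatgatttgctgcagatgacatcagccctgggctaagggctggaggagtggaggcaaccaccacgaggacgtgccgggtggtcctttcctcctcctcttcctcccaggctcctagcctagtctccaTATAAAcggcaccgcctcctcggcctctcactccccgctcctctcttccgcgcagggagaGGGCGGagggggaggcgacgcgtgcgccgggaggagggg
Tubb3: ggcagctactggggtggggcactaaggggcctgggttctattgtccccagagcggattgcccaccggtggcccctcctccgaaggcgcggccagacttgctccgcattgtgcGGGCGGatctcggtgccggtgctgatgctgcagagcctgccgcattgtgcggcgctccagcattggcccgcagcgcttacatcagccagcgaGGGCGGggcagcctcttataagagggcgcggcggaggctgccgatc
These matches describe the letters of the window and not the binding of any factor.

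Levels are given as log2 of the processed signal minus the 75th percentile of the same array, and each gene is represented by its brightest probe. A level can be compared between arrays but not between genes, because probes differ in response. The percentile itself was a signal of 905 (WT) and 971 (IP6K2-/-) in the spinal cord, and of 68.0 (WT) and 323 (IP6K2-/-) in the duodenum. The share of the 39429 probes that stood well above background was 76.8% and 77.4% in the spinal cord and 51.6% and 66.3% in the duodenum, so dim transcripts were most often out of reach on the WT duodenum array. Marker lists were set against the tissue labels. All 17 general neuronal genes on the array were well above background on both spinal cord arrays, as were 11 on the WT and 15 on the KO-labelled duodenum array, and their mean level was 3.29 and 3.20 in the spinal cord against −1.73 and −2.33 in the duodenum. All 10 gut epithelial genes were well above background on both duodenum arrays and 5 on each spinal cord array, with mean levels of 5.61 and 5.37 against −6.67 and −6.48. The genotype label disagreed with one transcript in the spinal cord. Ip6k2 itself had levels of −1.0 (WT) and 0.44 (IP6K2-/-) in the spinal cord, a difference of 1.45 in the direction opposite to the label, and of 1.04 and 0.83 in the duodenum. The files do not say whether its probe lies in the deleted exon. The arrays are therefore called KO-labelled, and every genotype direction is a direction of the labels. In whole tissue, fewer cells of a type and less RNA per cell cannot be told apart.

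All 10 genes were far higher in the spinal cord than in the duodenum, on the WT arrays and on the KO-labelled arrays alike. The neurofilament subunits Nefl, Nefm and Nefh were higher by at least 966-fold, a lower bound because they were at or near background in the duodenum. The microtubule genes and the growth-associated Stmn2 and Gap43 were higher by 55.5-fold or more. A limma fit had tissue and genotype label as terms (2 arrays per tissue, 1 residual degree of freedom, Benjamini-Hochberg adjustment over 24799 genes). By it all 10 were lower in the duodenum, with adjusted p from 3.35e-05 to 0.000333. Nefl, Nefm, Nefh, Map2 and Map1b entered this fit through the spinal cord alone, where they are high. It took their duodenum levels as measured, at or near background, so their p-values and fitted differences rest on such levels. The other 5 were well above background on every array. In the same fit 23% of all genes tested were lower in the duodenum and 25.7% were higher. The median difference, duodenum minus spinal cord, was −6.94 on the log2 scale for the 10 genes and 0.05 for all genes tested, and 3.05% of all genes tested lay below the smallest difference among the 10. The levels of the 2 tissues did not overlap for any of the 10 genes, and 38.7% of all genes tested likewise had both duodenum arrays below both spinal cord arrays.

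**Figure D1:**
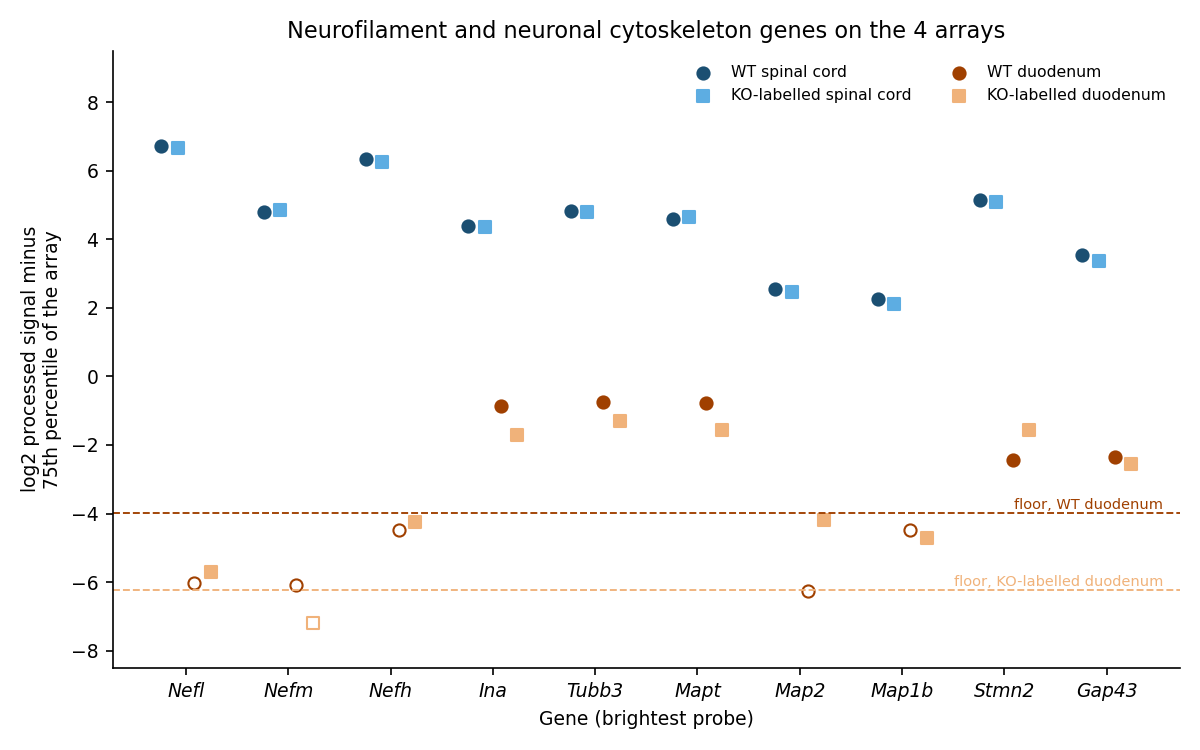
Level of each of the 10 genes on each of the 4 arrays, as log2 processed signal minus the 75th percentile of the array, one symbol per array. Filled symbols are well above background and open symbols are not, and dashed lines give the lowest level well above background on each duodenum array. Every spinal cord symbol lies above every duodenum symbol of the same gene, as it does for 38.7% of all genes tested, and the WT and KO-labelled symbols of the spinal cord nearly coincide.

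Among the neurofilament genes, the light subunit Nefl had a level of 6.72 in WT spinal cord and 6.67 in KO-labelled spinal cord, against −6.02 and −5.72 in the duodenum. Its processed signal was 95441 and 98892 in the spinal cord, and 1.05 and 6.13 in the duodenum, where only the KO-labelled array was well above background. The spinal cord level was at least 2991-fold higher (adjusted p = 3.35e-05 by limma). For such a bound each duodenum array was given the level of the probe or the lowest level well above background on that array, whichever was higher, and the spinal cord mean was set against the mean of the pair. The adjusted p beside a bound belongs to the fit of the levels as measured, and not to the bound. For every gene given a bound the fitted difference was the wider. For Nefl it was −12.57 (duodenum minus spinal cord), where the bound was 11.55 (spinal cord minus duodenum). The heavy subunit Nefh followed the same pattern, with 6.33 and 6.26 in the spinal cord and −4.47 and −4.23 in the duodenum, again well above background only on the KO-labelled duodenum array. It was at least 1358-fold higher in the spinal cord (adjusted p = 4.47e-05 by limma). The medium subunit Nefm, whose levels were 4.79 and 4.84 in the spinal cord and −6.07 and −7.19 in the duodenum, was not well above background on either duodenum array. Its bound was at least 966-fold (adjusted p = 5.24e-05 by limma). Alpha-internexin joins the other subunits in filaments. Ina had levels of 4.38 and 4.37 in the spinal cord and −0.86 and −1.72 in the duodenum, was well above background on all 4 arrays, and was 50.8-fold higher in the spinal cord (log2 difference −5.67 ± 0.47 (SE), duodenum minus spinal cord, adjusted p = 0.000333 by limma).

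Of the microtubule genes, Tubb3 had levels of 4.82 and 4.81 in the spinal cord and −0.74 and −1.31 in the duodenum. It was measured on all 4 arrays and was 57.2-fold higher in the spinal cord (log2 difference −5.84 ± 0.45 (SE), adjusted p = 0.000264 by limma). Tau was close to it. Mapt had 4.60 and 4.65 in the spinal cord and −0.78 and −1.55 in the duodenum, a 55.5-fold difference (−5.79 ± 0.46 (SE), adjusted p = 0.000304 by limma). The dendritic Map2 had 2.56 and 2.45 in the spinal cord and −6.25 and −4.20 in the duodenum, where only the KO-labelled array was well above background, and was at least 97.0-fold higher in the spinal cord (adjusted p = 0.000301 by limma). Map1b, at 2.25 and 2.10 in the spinal cord, had −4.47 and −4.71 in the duodenum with the same single array above background, and was at least 91.9-fold higher in the spinal cord (adjusted p = 0.000149 by limma). Map2 and Map1b thus shared with Nefl and Nefh a duodenum signal that was well above background on the KO-labelled array alone, which was also the brighter duodenum array over all probes.

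The axonal growth and repair genes were measured on all 4 arrays. Stmn2 had levels of 5.15 and 5.09 in the spinal cord and −2.42 and −1.55 in the duodenum. It was 138-fold higher in the spinal cord (−7.11 ± 0.47 (SE), adjusted p = 0.000169 by limma), the widest of the 5 differences that were measured on all arrays. Gap43 had 3.55 and 3.36 in the spinal cord and −2.36 and −2.55 in the duodenum, a 60.2-fold difference (−5.91 ± 0.43 (SE), adjusted p = 0.000227 by limma). By genotype label, the spinal cord excess of Gap43 was 60.4-fold on the WT arrays and 59.9-fold on the KO-labelled arrays, and that of Stmn2 was 191-fold and 99.9-fold. The excess of Ina was 37.8-fold and 68.3-fold, that of Tubb3 47.1-fold and 69.3-fold, and that of Mapt 41.7-fold and 73.8-fold. Stmn2 thus had the larger excess on the WT arrays, whereas Ina, Tubb3 and Mapt had it on the KO-labelled arrays. These differences between labels rest on 1 array each and were not tested.

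**Figure D2:**
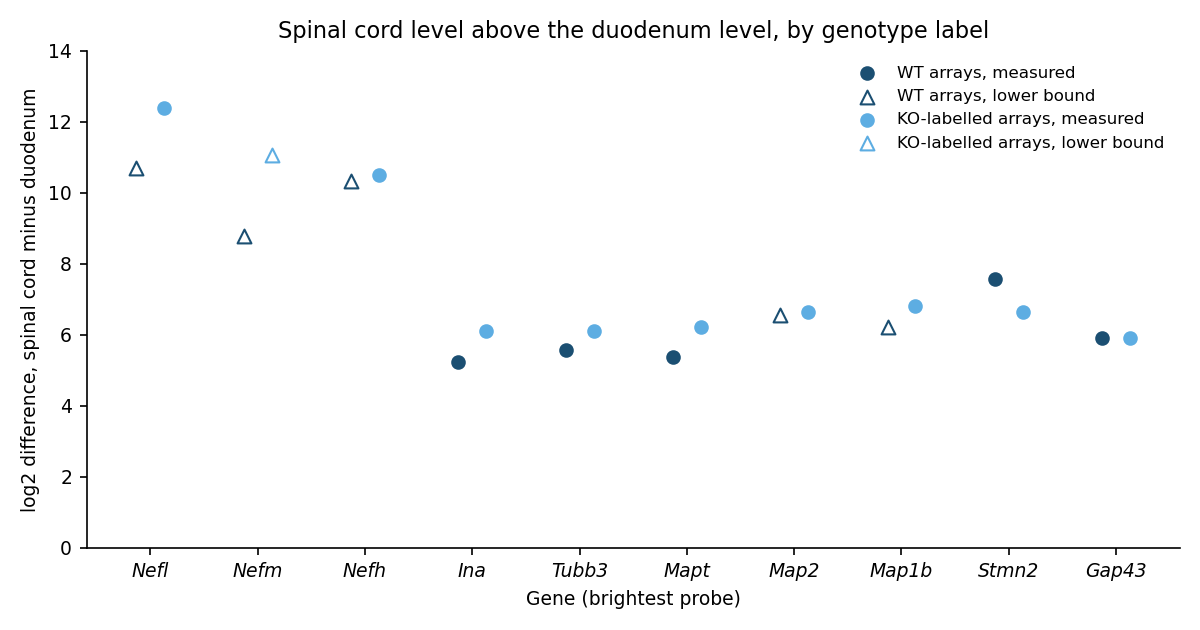
Log2 difference in level, spinal cord minus duodenum, of each gene, for the WT arrays (dark) and the KO-labelled arrays (light). Circles are measured on both arrays and open triangles are lower bounds against the lowest level well above background. The differences and bounds run from 5.24 (Ina, WT) to 12.39 (Nefl, KO-labelled), so all of them lie far above 0.

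In the spinal cord, the KO-labelled array hardly differed from the WT array for any of the 10 genes. The log2 differences, KO-labelled minus WT, ran from −0.20 (Gap43) to 0.06 (Nefm), with a median of −0.06 against −0.04 over 24172 genes that both arrays measured well above background. None of the 10 differed by 2-fold, and 2.47% of all genes did. With 1 array per genotype there was no test and no replicate check. The spread available is technical: probes spotted 10 times on each array gave a technical SD near 0.057 for a difference between single spots of this brightness, and it covers spots and not mice. By that measure 7 of the 10 differences lay within 2 technical SD of 0.

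**Figure D3:**
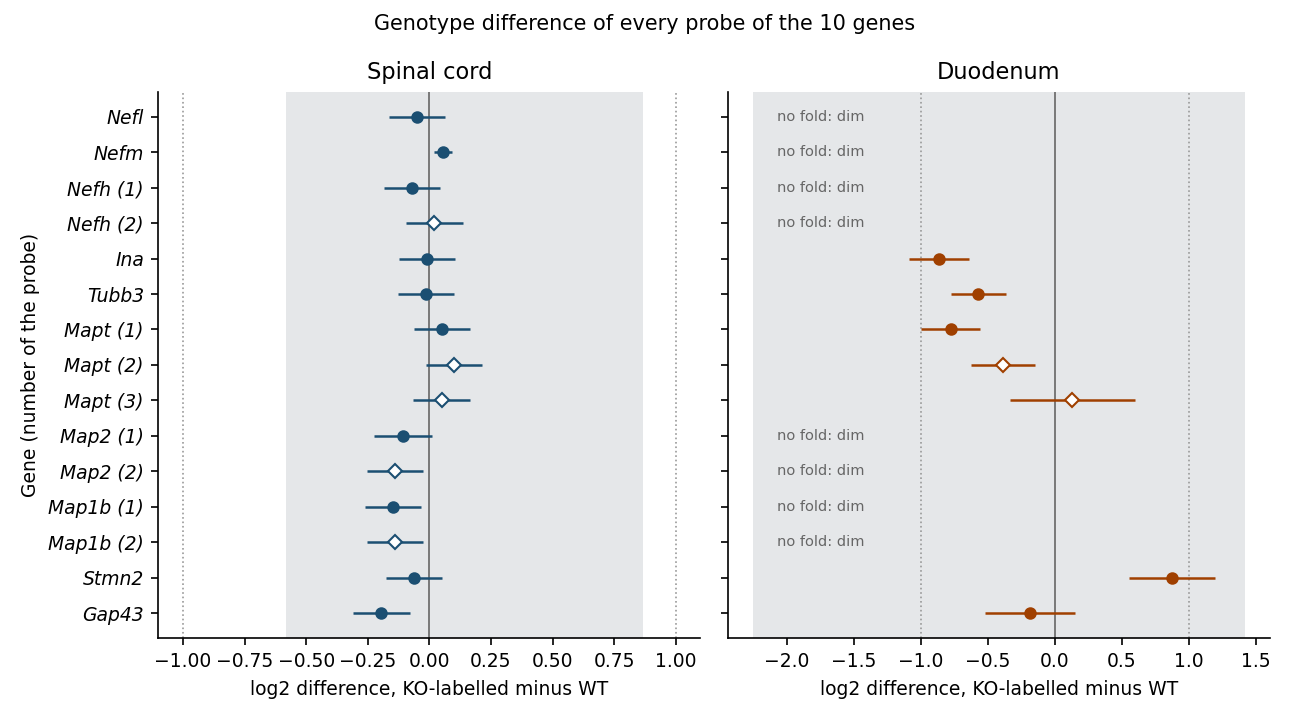
Log2 difference, KO-labelled minus WT, of all 15 probes in spinal cord (left) and duodenum (right), with bars of 2 technical SD. Circles are the brightest probe of a gene and diamonds the others, the grey band holds the central 95% of genes well above background on both arrays, and dotted lines mark 2-fold. All spinal cord probes lie between −0.20 and 0.10, whereas in the duodenum 7 probes have a value, from −0.86 (Ina) to 0.87 (Stmn2), and 8 are too dim for one.

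The neurofilament subunits differed by at most 0.07 in size at their brightest probes. The spinal cord difference was −0.05 for Nefl, −0.07 for Nefh, with 0.02 for its second probe, and −0.01 for Ina. Nefm was spotted 10 times on each array, with an SD between spots of 0.032 on the WT array and 0.048 on the KO-labelled array, so that its mean was known more closely than the others (technical SD 0.018). Its difference of 0.06 lay outside 2 technical SD, though it corresponds to only 1.04-fold. Among the microtubule genes, Tubb3 differed by −0.01, and the 3 probes of Mapt differed by 0.05, 0.10 and 0.05. Before scaling, Tubb3 gave signals of 25581 (WT) and 27201 (KO-labelled), and Mapt 21980 and 24405. Map2 differed by −0.11 and by −0.14 at its second probe, and Map1b by −0.15 and −0.14. Stmn2 differed by −0.06. Gap43 had the widest difference, −0.20, with 0.874 of the WT level on the KO-labelled array, and 65.0% of all genes differed by no more than that in size. Gap43, Map1b and Nefm were the 3 outside 2 technical SD. The median size of the difference was 0.059 for the 10 genes and 0.133 for all genes.

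The direction of such small values moved with the scaling. Under normexp background correction all 10 genes were higher on the KO-labelled array, by 0.15 to 0.47, when the median gene was at −0.45. When flagged local backgrounds were first set to the array median, the range was −0.20 to 0.10. The WT spinal cord array held a local background of up to 15708, against at most 47 on the other arrays. Under scaling on the E1A spike-in probes all 10 were lower, by values from −0.37 to −0.12, when the median gene was at −0.21. No gene of the 10 reached 1.5-fold under the main scaling. Of 25225 genes well above background on at least 1 spinal cord array, 1321 were higher and 815 lower by at least that much.

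Markers of other tissues did differ between these spinal cord arrays, and their part in the values of the 10 genes was not tested. All 9 Schwann cell genes were higher under the main scaling on the KO-labelled array, 6 of them by at least 2-fold (2.28% of all genes were), with a median difference of 2.25 over the 8 well above background on both arrays, including the peripheral myelin gene Prx (5.23). All 12 skeletal muscle genes were higher there, 11 of them by at least 2-fold, with a median of 4.02 over 11. The muscle list had a mean level of −1.70 on the WT array against 1.79 on the KO-labelled array, and the Schwann cell list of −2.73 and −0.12. The 7 red blood cell genes were higher by a median of 1.21. On the same arrays the neurofilament subunits stayed within 0.07 of 0. General neuronal genes had a median of −0.10 (17 genes, range −0.30 to 0.15) and motor neuron genes of 0.01 (7 genes, range −0.04 to 0.22), with no gene of either list past 2-fold. Under normexp, 6 of the 8 Schwann cell genes were still higher, with a median of 1.11, as were all 11 muscle genes, with a median of 2.67.

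In the duodenum a difference could be given for 5 of the 10 genes. Ina, Tubb3 and Mapt were lower on the KO-labelled array by less than 2-fold under each setting but E1A spike-in scaling, under which they and the median gene were higher. Stmn2 was higher by less than 2-fold, and Gap43 was within 2 technical SD of 0. The median of the 5 was −0.57, against −0.11 over 16815 genes that both arrays measured well above background. None of the 5 differed by 2-fold, and 22.1% of all genes did. This contrast was thus much wider over all genes than that of the spinal cord, and like it had no test.

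Ina, at −0.86 on the WT duodenum array and −1.72 on the KO-labelled one, differed by −0.86 with a technical SD of 0.11. Before scaling its signals were 37.5 and 97.9, higher on the KO-labelled array, which was the brighter one over all probes. The E1A spike-in probes were dimmer on that array, with a median log2 signal of 10.20 against 11.02 on the WT duodenum array. Tubb3 differed by −0.57 (technical SD 0.10), from signals of 40.8 and 130. Mapt differed by −0.77 (technical SD 0.11) at its brightest probe, by −0.39 at the second and by 0.13 at the third, so its probes did not share a direction. Stmn2 differed by 0.87 (technical SD 0.16), from signals of 12.7 and 110. Under normexp the difference of Stmn2 was −0.41, so that its direction was not stable. Gap43 differed by −0.18 (technical SD 0.17), and by −0.88 under normexp. Ina and Mapt kept values of −0.85 and −0.74 under normexp, and Tubb3 had −0.75. With the arrays scaled on E1A spike-in probes, all 5 genes were higher on the KO-labelled array, by 2.20 to 3.94, when the median gene was higher by 2.95. Relative to the median gene the 5 main values had a median of −0.45.

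The other 5 genes gave no difference in the duodenum. Nefl, Nefh, Map2 and Map1b were well above background on the KO-labelled array only, and their level there was below the lowest level that counted as well above background on the WT array, so no fold could be set. That lowest level was −3.99 on the WT duodenum array and −6.22 on the KO-labelled one. Nefm was above background on neither. For these 5 genes a difference between the duodenum arrays was not detectable at this signal.

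Cell type markers of the duodenum moved beside these values, and their part was not tested. Of 17 general neuronal genes on the array, 11 were well above background on both duodenum arrays, with a median difference of −0.73 (2.33 on E1A spike-ins). Their range ran from −4.14 for the synaptic vesicle gene Syp to 0.39. Enteric neuron genes had a median of 0.09 (8 genes, range −0.55 to 0.62), which was −0.65 under normexp, and none was past 2-fold. Enteroendocrine genes had a median of 0.27 (10 genes, range −0.70 to 1.33), with 7 above 0 and 3 below. Chgb (1.33) and Scg2 (1.16), which encode proteins of secretory granules, were the 2 past 2-fold. Of all genes well above background on both duodenum arrays, 22.1% were past 2-fold either way. Smooth muscle genes had a median of −0.66 (8 genes), against 2.40 on E1A spike-ins. All 6 red blood cell genes measured were lower on the KO-labelled array, with a median of −3.39. On E1A spike-ins their median was −0.33, and 3 of the 6 were higher. The median gene was at 2.95 on E1A spike-ins. The mean level of the red blood cell list was 2.58 on the WT duodenum array and −0.54 on the KO-labelled one.

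The rest of the neuronal cytoskeleton was read from 7 lists of other genes, intermediate filaments, tubulins, microtubule-associated proteins, stathmins and growth-cone proteins, axonal motors, spectrins and ankyrins, and cytoskeletal kinases. Of the 106 genes listed, 103 were on the array. Between tissues, 66 of the 103 were lower in the duodenum by the limma fit, 7 were higher and 30 were not called, with a median of −3.09. Of all genes tested in that fit, 23% were lower and 25.7% higher, with a median of 0.05. By list, 7 of 13 tubulins, 16 of 27 microtubule-associated proteins, 8 of 11 stathmins and growth-cone proteins, 13 of 18 axonal motors and 8 of 11 spectrins and ankyrins were lower in the duodenum. Among them, the neuronal kinesin heavy chain Kif5c differed by −8.05 ± 0.48 (SE, adjusted p = 0.000121 by limma) and the stathmin Stmn3 by −6.43 ± 0.49 (SE, adjusted p = 0.000264 by limma). The muscle filament gene Des, which encodes desmin, went the other way, 4.97 ± 1.09 (SE) higher in the duodenum (adjusted p = 0.0124 by limma).

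Between genotype labels, 1 of the 103 other cytoskeletal genes differed by at least 2-fold in the spinal cord, or 0.971%, against 2.47% of all genes. It was Des, higher by 3.44 on the KO-labelled array, the array on which the skeletal muscle genes were also higher, but its difference was −0.31 under normexp and 1.76 with flagged backgrounds replaced. The median of the 103 was −0.03. In the duodenum 8 were higher and 9 lower by at least 2-fold, or 17.3% of the 98 well above background on an array, against 19.1% of all genes. All 12 tubulins measured on both duodenum arrays were lower on the KO-labelled array, with a median of −0.42. Under normexp 7 of the 12 were higher, and on E1A spike-ins all 12 were, when the median gene was at 2.95. Of the 12, Tubb5 alone passed 2-fold, at −1.04. The growth-cone genes Basp1 (−2.60) and Nrn1 (2.13) differed in opposite directions, as did the microtubule-associated Map6d1 (−2.53) and Map9 (−1.24) against Map7 (1.54). Stmn3 (−1.14) was lower where its relative Stmn2 was higher, but under normexp both were lower (−0.99 and −0.41). Of the motors, Kif3b (−1.35) and Kif3c (−1.89) were lower, and Kif3a (1.03), with which they pair in kinesin-2, Kif5c (1.04) and Kif21a (1.32) were higher. With its probes averaged Kif3b was at −0.85, less than 2-fold. The spectrin gene Sptan1 was at −1.33. Of the 13 cytoskeletal kinases and regulators with a value, Cdk5 (1.26, and 0.76 under normexp) and Ttbk2 (at least 1.1, with no value under normexp) were past 2-fold, while 9 of the 13 were above 0 and 4 below, among them the tau kinase Gsk3a at −0.80. These are differences between 2 arrays with no test. On E1A spike-ins all 83 of these genes well above background on both arrays were higher on the KO-labelled array, as was the median gene. Under normexp the signs of Kif3a (−0.18) and Kif5c (−0.61) turned, and Nrn1 was at 0.08.

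**Figure D4:**
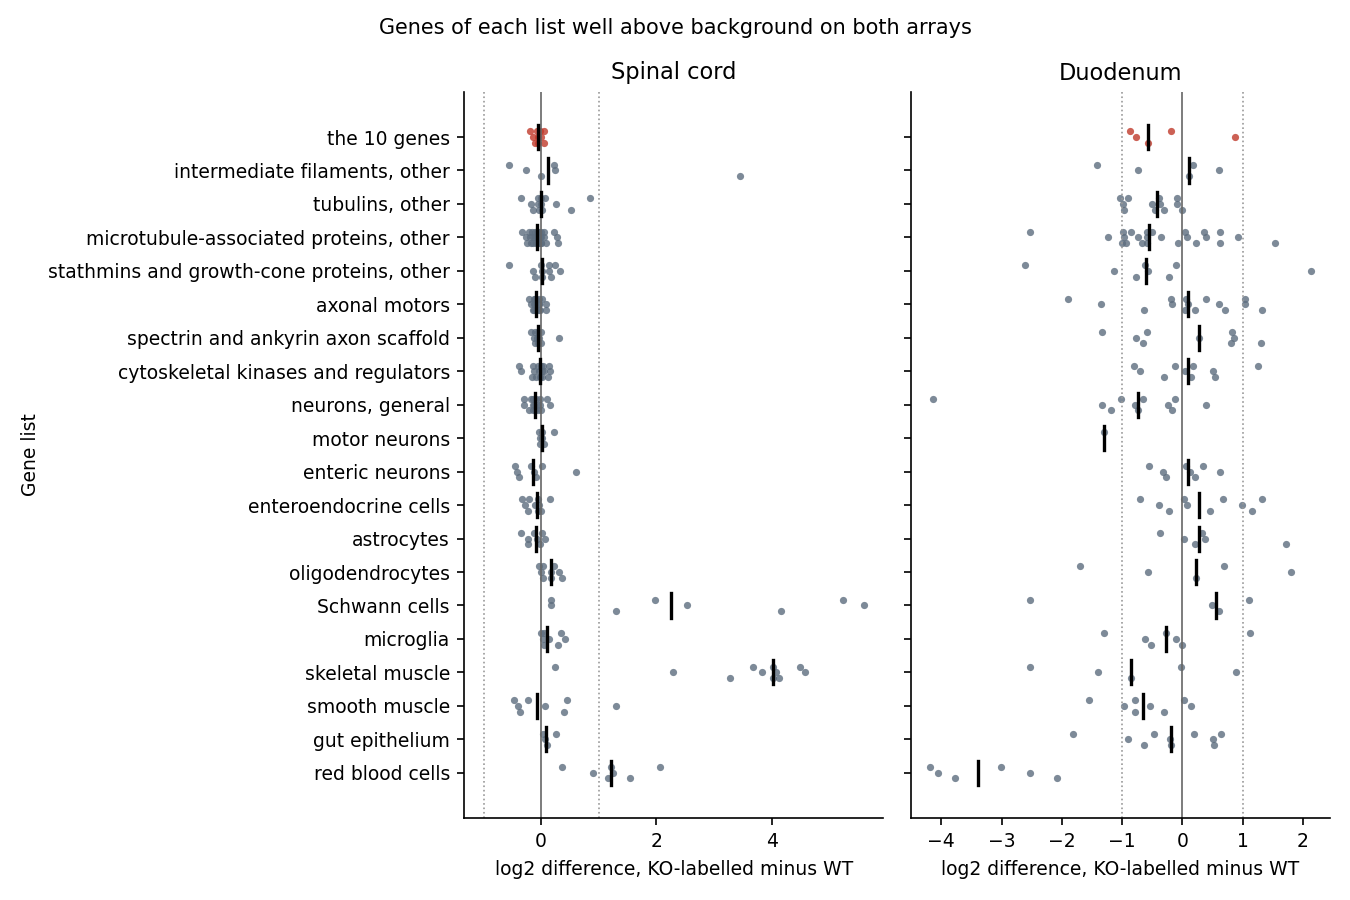
Log2 difference, KO-labelled minus WT, of every gene well above background on both arrays, by gene list, in spinal cord (left) and duodenum (right). Each dot is a gene, the black bar is the median of the list and dotted lines mark 2-fold. The 10 genes (red) lie within 0.20 of 0 in the spinal cord, where the Schwann cell list has a median of 2.25 and the skeletal muscle list of 4.02.

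Over the 4 arrays, each gene was also set against the common pattern of the 10, taken as the median of their levels after each was centred on its own mean, with levels below the lowest one well above background raised to it. Map2 lay closest to that pattern, at a root mean square distance of 0.081 on the log2 scale, followed by Map1b (0.159) and Gap43 (0.290). Nefl was farthest (2.59), then Nefh (1.97) and Nefm (1.85). Of 16305 other genes with a symbol and well above background on both spinal cord arrays, the 5 nearest were Oprl1 (0.083), Ebf3 (0.085), Svop (0.109), Igsf21 (0.111) and Sult4a1 (0.112). Oprl1 encodes the nociceptin receptor, Ebf3 a transcription factor of developing neurons, and Svop a synaptic vesicle protein. The pattern is almost wholly the tissue difference. With 4 arrays it cannot separate genes that share it, and it was not tested.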

How the data were processed

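Total RNA (0.1 ug, Cy3-labelled) was measured on 4 1-colour arrays. The authors deposited, per array, the output of Agilent Feature Extraction 11.5.1.1, whose processed signal is a background-subtracted and detrended intensity, and a log2 table, found here to be quantile-normalized across the arrays. Analyses used Python 3.11.15, R 4.3.3 and limma 3.58.1. Of 43020 non-control spots per array, 89 to 133 marked as outliers were left out, and none was saturated. Spots of a probe were averaged on the log2 scale after subtraction of the 75th percentile of the array. A probe counts as well above background by the flag of the scanner software. Accessions were named through RefSeq, and 25868 of 26391 protein-coding accessions matched. The array design and the RefSeq table use different builds, so no gene coordinates from that table were used. The brightest probe by mean over the 4 arrays represented a gene.

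Genotype differences have 1 array per group and no test. A difference of 2-fold was counted, with a bound where 1 array was well above background. The technical SD came from the 50 probes nearest in brightness among 399 spotted 10 times. The tissue comparison used lmFit and eBayes with genotype label as a term, on genes well above background on both arrays of at least 1 tissue, at an adjusted p of 0.05. The scripts were tested on simulated data. Named genes were the 10 members, genes of other lists past 2-fold or with the highest mean, and the 5 nearest patterns. The genes and lists were chosen with earlier results of these data known. Alternatives were other background corrections, scalings, probe rules, filters, thresholds and arrays left out. The labels describe each array as 1 sample, and the number of arrays limits the precision. Results of some genes of these lists are not reported here.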

Additional observations from a re-analysis of the deposited data

Results flagged for a closer look

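Some genes went in opposite directions in the 2 tissues, higher on the KO-labelled array in one and lower in the other. With 1 array per genotype and tissue the difference between tissues was not tested for any of them. Stmn2 was the only one of the 10 genes with a duodenum value above 0, at 0.87 against −0.06 in the spinal cord, so that the duodenum difference exceeded the spinal cord one by 0.93, but its spinal cord value lay within 2 technical SD of 0 and its duodenum sign changed under normexp. For the targeted gene Ip6k2 the duodenum difference minus the spinal cord difference was −1.66. For the muscle genes Des and Ckm it was −4.86 and −5.98, and for the peripheral myelin gene Pmp22 −4.51. For the red blood cell genes Hbb-bt, Hbb-bs, Alas2 and Slc4a1 it was −4.17, −3.79, −4.99 and −3.63. Under normexp Des had −0.31 in the spinal cord, where the median gene was at −0.45, and −0.91 in the duodenum, the same direction. With flagged local backgrounds replaced, Des had 1.76 in the spinal cord and −0.91 in the duodenum, opposite directions again. Under normexp the duodenum difference of Ip6k2 was 0.06, the direction of its spinal cord difference. On E1A spike-ins, Ip6k2, Des, Ckm, Pmp22, Hbb-bt, Hbb-bs and Slc4a1 were higher on the KO-labelled array in both tissues. In the duodenum that scaling put the median gene at 2.95, above each of these genes, which ran from 0.05 (Hbb-bt) to 2.85 (Ip6k2).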

How the results depend on the processing

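The tissue difference held under each setting tried. All 10 genes were lower in the duodenum with adjusted p under 0.05 by limma under every scaling, background correction and probe rule, and without the genotype term. Nefl, Nefm, Nefh, Map2 and Map1b entered these fits through the spinal cord alone, where they are high. Their duodenum levels were at or near background, so their repeated calls are no separate support. In fits without the genotype term that left out any 1 of the 4 arrays, the median of the 10 ran from −7.10 to −6.69. Those last fits leave 1 array in a tissue, which is assumed to vary like the arrays of the other tissue. Only genes well above background on every array left 5 to test, and all 5 were called. The count over all genes was less stable. Of all genes tested, 5699 were lower and 6369 higher in the main fit, against 18972 and 1685 under quantile normalization within each tissue, 12370 and 699 on E1A spike-ins, 3181 and 5867 under normexp, 2966 and 11519 under normexp with flagged backgrounds replaced, 5060 and 7471 after scaling on the median, 4464 and 9971 with no filter, and 3202 and 6593 with genes above background on every array. With an array and the genotype term left out they ran from 2527 to 9426 and from 2362 to 10561. The median of the 10 genes relative to the median gene stayed between −7.71 and −5.78 under these settings.

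In the spinal cord the median of the 10 genes (−0.06) was 0.31 under normexp, 0.023 under quantile normalization of the 4 arrays, 0.0083 under quantile normalization within the tissue, 0.013 in the deposited table and −0.23 on E1A spike-ins. The 0.31 was not seen with flagged backgrounds replaced (−0.07). In the duodenum the median (−0.57) was −0.75 under normexp with or without that replacement, −0.34 with the probes of a gene averaged, −0.21 with no filter on dim probes and 2.50 on E1A spike-ins, which raised the median gene to 2.95. Past 2-fold in the duodenum, 9 genes were higher on E1A spike-ins, bounds included, and with no filter 1 was higher and 1 lower. In the main setting none of the 10 was past 2-fold, and 22.1% of all genes well above background on both arrays were. At 1.5-fold, 1 was higher and 2 lower, when the quartiles over all genes measured on both arrays were −0.67 and 0.41. The cause of these shifts was not tested. Of 150 genotype differences of single genes under an alternative, 97 moved by less than the technical SD and 53 by more. Some of the 97 could not move. The filters on dim probes leave a gene measured on both arrays unchanged, and averaging probes leaves a gene with a single probe unchanged. The 97 are therefore no measure of stability. In the deposited table, up to 6 probes per array, none of the 10 genes, carried values unlike the scanner files and were kept out of its lowest level, a choice made after seeing the data. No paired analysis was possible because the groups hold 1 array each and share fewer than 2 replicate numbers, although the genotype term of the tissue fit pairs the tissues by label. Low signal limits the duodenum, where 5 of the 10 genes gave no difference.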
